A study of Saccharomyces cerevisiae with 8 samples.

Results

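The yeast genes described here encode the core proteins of the small nucleolar ribonucleoproteins (snoRNPs) and the factors that assemble the ribosomal subunits. The members were 45 named genes of Saccharomyces cerevisiae, found by the symbol that the array platform's annotation gives to each probe set. A probe set naming 1 gene was found for 44 of the 45, out of 5656 genes on the array, and DBP4 was matched through its older name HCA4. NOP10 had no such probe set and was not analysed here. The 44 genes had 47 probe sets of the 9275 tested, because NOP58 had 4, and a gene was represented by its brightest probe set. They fell into 4 roles: 4 box C/D core proteins, 3 box H/ACA core proteins, 22 factors of the small subunit and 15 factors of the large (60S) subunit.

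Total RNA of exponentially growing cultures was hybridised to Affymetrix arrays, 8 in all, to compare strains and temperatures. The genotypes were labelled wild type, rnt1d and rnt1ts, each sampled at 26 C and at 37 C, and the labels do not spell out the last pair. At 26 C, the wild type group and the rnt1d group each had 2 arrays, called biological replicates in the labels, and the 4 other groups (rnt1ts at 26 C and each genotype at 37 C) had 1 array each. The design text names rich medium and the growth protocol complete medium with or without leucine, without tying either to an array.

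RNT1 encodes the yeast RNase III, an endonuclease that cuts double-stranded RNA and releases many snoRNAs and the end of the ribosomal RNA precursor. Box C/D snoRNPs guide ribose methylation of ribosomal RNA and box H/ACA snoRNPs guide pseudouridylation. The U3 snoRNP is a box C/D particle that, with UtpA, UtpB, the Mpp10 complex and other factors, forms the small-subunit processome on the nascent precursor, while a separate and partly sequential set of factors builds the large subunit. In yeast the genes for assembly factors are known as a regulon that follows growth rate and nutrient supply.

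Values are given as the normalised signal, the authors' linear MAS5 signal after quantile normalization, which gives every array the same distribution. Differences are of log2(signal + 16), which understates the change of dim transcripts. A gene was called when limma's Benjamini-Hochberg adjusted p over all 9275 probe sets was under 0.05. All 47 probe sets were above background on all 8 arrays, where the bound, set by the brightest of 19 controls against foreign transcripts, ran from 3.48 to 10.7. Signals of different probe sets were not compared with each other. RNA of whole cultures was measured, so less RNA of a gene in every cell and fewer cells that express it cannot be told apart.

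The strain labels were checked against RNT1 (YMR239C, chromosome XIII). Its signal was 181 and 149 in wild type at 26 C, 1.31 and 2.03 in rnt1d at 26 C, 39.8 in rnt1ts at 26 C and 269 in wild type at 37 C. Both rnt1d arrays were under the background bound. It was 71.4 on the array labelled rnt1d at 37 C and 1.26 on the array labelled rnt1ts at 37 C. The mitochondrially encoded OLI1, a subunit of the ATP synthase, was at 0.433 and 0.676 in rnt1d at 26 C and at 0.523 on the 37 C array labelled rnt1ts, against 2100.1 to 2542 on the other 5 arrays. COX1, also mitochondrially encoded, differed from wild type at the same temperature by -5.91 in rnt1d and -2.58 in rnt1ts at 26 C. On the 37 C arrays labelled rnt1d and rnt1ts COX1 differed by -3.71 and -6.63. ATP6, the remaining mitochondrial check gene, was at -5.11 in rnt1d at 26 C and -5.08 on the 37 C array labelled rnt1ts. The median of the chromosome V probe sets stood 0.74 and 0.76 above the wild type 26 C mean on the rnt1d arrays and 0.74 above it on the 37 C array labelled rnt1ts, and between -0.05 and 0.01 on the other arrays. In RNT1, OLI1 and the chromosome V median the array labelled rnt1ts at 37 C was like the rnt1d arrays at 26 C, and the array labelled rnt1d at 37 C was not. No array was moved between groups, and both are called by their labels below. The trimmed means of the deposited arrays, with 2% removed on either side, were 103 to 195.

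At 26 C the assembly genes were mostly lower in rnt1d than in wild type, and the difference came more from the second rnt1d array than from the first. Of the 44 genes 38 had a log2 difference below 0, with a median of -0.43 and a range of -0.98 to 0.80, beside a median of -0.03 over all probe sets. Few single genes passed the test. NUG1 was called higher (1 of 44, 2.27%), where 3.54% of all probe sets were, and 0 of the 44 were called lower, where 1.95% of all were. At an unadjusted limma p under 0.05, 14 were lower (31.8%, against 11.2% of all probe sets) and 1 was higher (2.27%, against 12.1%). All probe sets include dim ones, whose change is understated, while 42 of the 44 members passed a filter at the 50th percentile of signal. With that filter 2 members were called lower (4.76%, against 6.45% of the 4637 probe sets kept). The rnt1d arrays were both below both wild type arrays for 24 of the 44 genes (54.5%), against 29.2% of all probe sets, and both above for 3 genes (6.82%), NUG1, UTP7 and UTP9, against 25.1%.

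**Figure D1:**
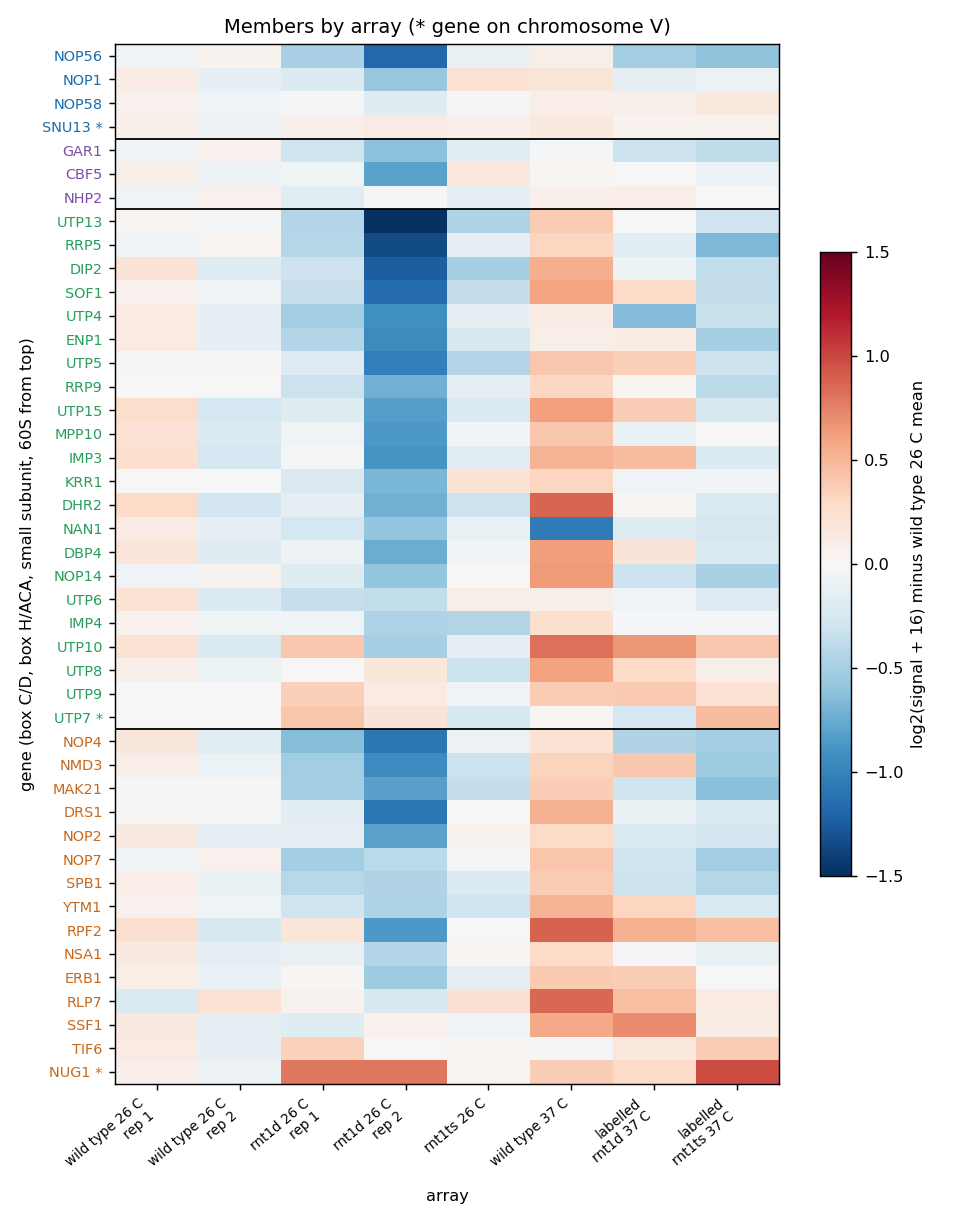
Log2(signal + 16) of the 44 genes (rows, ordered by role and then by the rnt1d difference at 26 C) on the 8 arrays (columns), each minus the wild type 26 C mean and coloured from -1.5 to 1.5, where red is higher. The column of rnt1d replicate 2 is the bluest, the column of wild type at 37 C is mostly red, and the 3 genes marked with an asterisk lie on chromosome V.

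The rnt1d replicates are therefore given apart. Relative to the wild type 26 C mean, the median of the 44 genes was -0.18 on rnt1d replicate 1 and -0.65 on replicate 2, while the median of all probe sets was -0.02 and -0.03. The wild type arrays themselves were at 0.08 and -0.08. Replicate 2 was below replicate 1 for 38 of the 44 genes (86.4%), against 49.1% of all probe sets. The exceptions were NHP2, NOP7, NUG1, SNU13, SSF1 and UTP8. Replicate 2 had the lowest signal of all 8 arrays for 34 of the 44 (77.3%), against 18.5% of all probe sets. By role, the medians on replicates 1 and 2 were -0.12 and -0.37 for the box C/D proteins, -0.15 and -0.61 for the box H/ACA proteins, -0.19 and -0.73 for the small-subunit factors and -0.17 and -0.46 for the 60S factors. After median scaling, which aligns the arrays by their medians alone, these pairs were -0.76 and -0.76, -0.84 and -0.99, -0.26 and -0.79, and -0.34 and -0.65. On replicate 1 both core medians then lay below those of the assembly factors, and the box C/D median was the same on both replicates. With replicate 1 left out the median of the 44 genes was -0.65, and with replicate 2 left out it was -0.18. On the deposited scale, where the arrays were not aligned, the members' medians were 0.44 and -0.90 on the replicates, with all probe sets at 0.45 and -0.15.

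**Figure D2:**
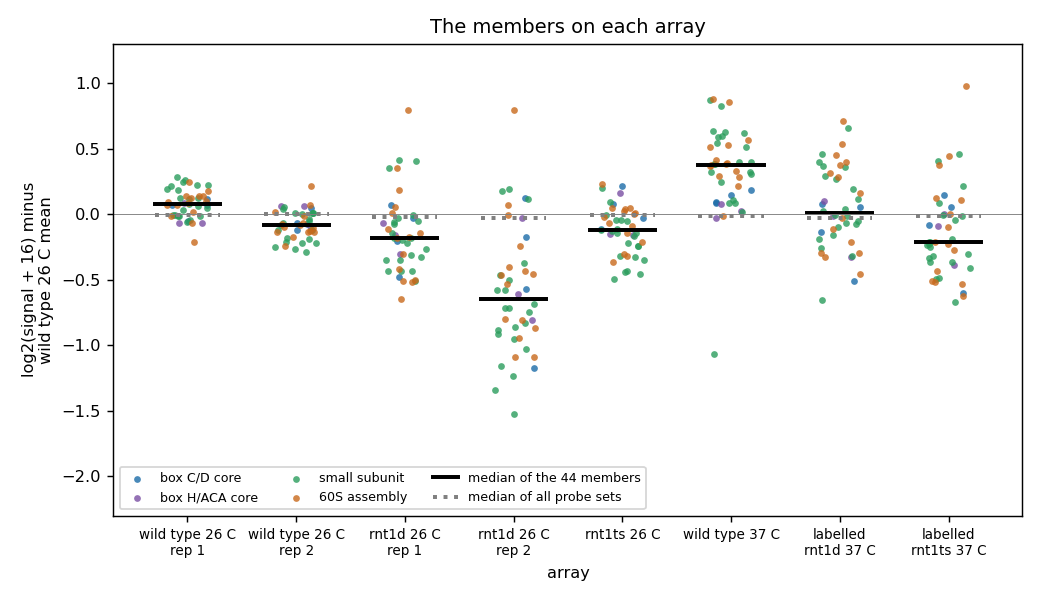
Log2(signal + 16) of each of the 44 genes minus its wild type 26 C mean, by array, with points coloured by role, a black bar at the genes' median and a dotted bar at the median of all probe sets. The black bar lies at -0.18 and -0.65 on the rnt1d arrays at 26 C and at 0.37 on the wild type array at 37 C, while the dotted bars stay between -0.03 and 0.01.

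Of the box C/D core proteins, NOP56 was the lowest in rnt1d after quantile normalization and SNU13 was not lower. NOP56, a scaffold protein of the particle, gave signals of 388 and 418 in wild type against 284 and 169 in rnt1d at 26 C, 372 in rnt1ts, 428 in wild type at 37 C, and 279 and 259 on the arrays labelled rnt1d and rnt1ts at 37 C. The rnt1d arrays did not overlap the wild type arrays, and the log2 difference of -0.83 (SE 0.25) missed the threshold with a limma adjusted p of 0.122. NOP1, the fibrillarin methyltransferase, gave 993 and 841 in wild type against 789.9 and 610.0 in rnt1d, 1063 in rnt1ts, 1041 in wild type at 37 C, and 833 and 861 on the labelled rnt1d and rnt1ts arrays. It was below both wild type arrays in both rnt1d arrays, at -0.39 (SE 0.19, limma adjusted p = 0.277). With median scaling instead, NOP1 was called lower (-0.90, limma adjusted p = 0.0425). SNU13, which binds the kink-turn of the box C/D motif and is also part of the U4 snRNP, gave 1794 and 1619 in wild type against 1794 and 1856 in rnt1d, 1798 in rnt1ts, 1884 in wild type at 37 C and 1774 on both labelled arrays. Its groups overlapped at 26 C (0.10, SE 0.14, limma adjusted p = 0.729). The direction of SNU13 depended on the scaling. After median scaling all 4 box C/D genes were below the wild type 26 C mean on both rnt1d arrays. They ranged from -0.86 to -0.63 on replicate 1 and from -1.36 to -0.30 on replicate 2.

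The 4 probe sets of NOP58, the partner scaffold of NOP56, did not give the same answer. The brightest, whose name ends in s_at, read 2640.2 and 2394 in wild type against 2461 and 2224 in rnt1d, which overlap (-0.10, SE 0.15, limma adjusted p = 0.725). The dimmest, ending in r_at, read 82.6 and 80.5 in wild type against 27.2 and 30.9 in rnt1d, 71.1 in rnt1ts, 54.9 in wild type at 37 C, and 15.2 and 37.3 on the labelled rnt1d and rnt1ts arrays. It fell by 1.12 in rnt1d at 26 C (SE 0.17, limma adjusted p = 0.0284) and was the only one of the 47 probe sets called lower there. That call was lost on the deposited scale and with any 1 of the 4 replicate arrays left out (limma adjusted p from 0.0807 to 0.228). The remaining NOP58 probe sets, ending in i_at and in at alone, differed by -0.31 and -0.38 with limma adjusted p values of 0.273 and 0.43. The letters s, r and i in these names are Affymetrix's marks for probe sets that share probes or were built under relaxed rules, so the gene's change was taken as unsettled.

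The 3 box H/ACA proteins measured were below wild type on average, none of them past the threshold after quantile normalization. CBF5, the pseudouridine synthase, gave 1175 and 1041 in wild type against 1053 and 626 in rnt1d, 1237 in rnt1ts, 1128 in wild type at 37 C, and 1098 and 1041 on the labelled rnt1d and rnt1ts arrays. Only rnt1d replicate 2 stood apart from the other 7 arrays, and the difference was -0.44 (SE 0.26, limma adjusted p = 0.377). GAR1 gave 845 and 926 in wild type against 715 and 573 in rnt1d, 792 in rnt1ts, 868 in wild type at 37 C, and 702 and 673 on the labelled arrays. Both rnt1d arrays of GAR1 were below both wild type arrays, at -0.46 (SE 0.17, limma adjusted p = 0.182). With median scaling instead, GAR1 was called lower (-0.96, limma adjusted p = 0.0464). NHP2, which is related to SNU13, gave 1322 and 1449.8 in wild type against 1242 and 1359 in rnt1d, and 1244 to 1489 on the other 4 arrays. Its groups overlapped, at -0.09 (SE 0.15, limma adjusted p = 0.754).

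**Figure D3:**
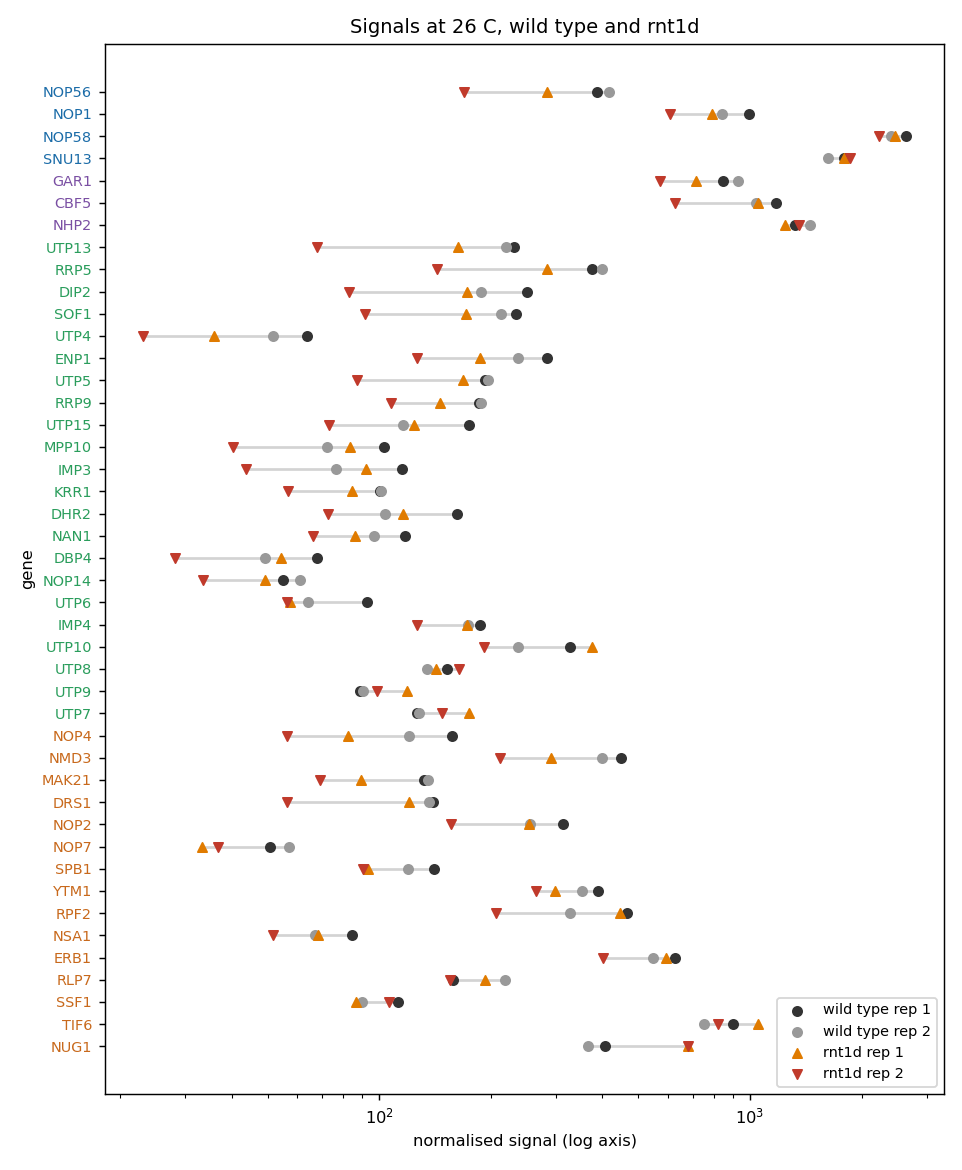
Normalised signal on a log axis of the 44 genes at 26 C, with dark and light circles for wild type replicates 1 and 2 and upward and downward triangles for rnt1d replicates 1 and 2, joined by a line over the range. For most small-subunit and 60S genes the downward triangle is at the left end, as for UTP13 at 68.1, and for NUG1 both triangles lie at the right end at 681.

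The small-subunit factors held the 2 lowest genes. UTP13, a WD-repeat protein of UtpB, the complex that joins the precursor after UtpA, gave 232 and 220.3 in wild type against 163 and 68.1 in rnt1d at 26 C. It gave 160.2 in rnt1ts, 300.1 in wild type at 37 C, and 225 and 180.3 on the labelled rnt1d and rnt1ts arrays. Both rnt1d arrays were below wild type and replicate 2 was far below replicate 1, so that the difference of -0.98 came with an SE of 0.35 and a limma adjusted p of 0.174. RRP5, an RNA-binding factor needed for both subunits, gave 376 and 400.1 in wild type against 283 and 144 in rnt1d, 355 in rnt1ts, 488 in wild type at 37 C, and 346 and 238 on the labelled arrays (-0.89 in rnt1d at 26 C, SE 0.30, limma adjusted p = 0.156). DIP2, also of UtpB, gave 250.0 and 188 in wild type against 172 and 82.8 in rnt1d, 149.5 in rnt1ts, 324 in wild type at 37 C, and 205 and 165 on the labelled arrays (-0.77, SE 0.33, limma adjusted p = 0.235). For all 3 genes the rnt1d and wild type arrays did not overlap. UTP6, the remaining UtpB gene on the member list, was at -0.36 (limma adjusted p = 0.372). The 3 UtpB genes on that list, which does not hold the whole complex, had a median of -0.77.

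The 7 genes of UtpA, the first complex on the precursor, were less uniform, with 5 below 0 and a median of -0.42. UTP4 was the lowest of them, with 63.9 and 51.7 in wild type against 35.7 and 23.0 in rnt1d, 51.4 in rnt1ts, 63.2 in wild type at 37 C, and 30.9 and 42.4 on the labelled rnt1d and rnt1ts arrays. Its difference was -0.71 (SE 0.22, limma adjusted p = 0.127), and the rnt1d arrays did not overlap wild type. UTP9 went the other way, with 88.7 and 90.2 in wild type against 119 and 98.6 in rnt1d, 85.9 in rnt1ts, 121 in wild type at 37 C, and 123 and 106 on the labelled arrays (0.24, SE 0.17, limma adjusted p = 0.467). UTP10 shows how far the rnt1d replicates could part, with 327 and 236 in wild type against 375 and 192 in rnt1d at 26 C, where replicate 1 was above both wild type arrays and replicate 2 below both. Its mean difference was -0.05. NAN1, UTP5, UTP8 and UTP15 were at -0.42, -0.61, 0.08 and -0.51 (limma adjusted p from 0.27 to 0.807).

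The Mpp10 complex and the U3-specific protein were lower in rnt1d by -0.26 to -0.52, with 0 calls. MPP10 and IMP3 were each at -0.46, both with replicate 2 below wild type and replicate 1 between the wild type arrays. IMP4 gave 188 and 174 in wild type against 173 and 127 in rnt1d, and 129 in rnt1ts (-0.26 in rnt1d, SE 0.19, limma adjusted p = 0.474). RRP9, the protein that is particular to the U3 snoRNP, gave 186 and 188 in wild type against 146 and 107 in rnt1d (-0.52, SE 0.19, limma adjusted p = 0.173). The U3 RNA gene SNR17A itself gave 34.0 and 43.4 in wild type against 58.6 and 48.6 in rnt1d, 39.8 in rnt1ts, 33.0 in wild type at 37 C, and 62.2 and 58.7 on the labelled rnt1d and rnt1ts arrays. SNR17A was thus above wild type in both rnt1d arrays while RRP9 was below, but its difference of 0.35 missed the threshold (SE 0.19, limma adjusted p = 0.346). Of the 8 other small-subunit genes, which bind or remodel the precursor, 7 were below 0 and UTP7 was at 0.30. The 7 ranged from -0.38 for NOP14 to -0.89 for RRP5, with SOF1 at -0.75, ENP1 at -0.69, KRR1 at -0.45, the helicase DHR2 at -0.43 and the helicase DBP4 at -0.41.

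The 60S factors had a median of -0.38, and 13 of 15 were below 0. NOP4, an RNA-binding protein of early 60S particles, was the lowest, with 157 and 120.0 in wild type against 82.4 and 56.3 in rnt1d, 128 in rnt1ts, 162 in wild type at 37 C, and 96.0 and 92.1 on the labelled rnt1d and rnt1ts arrays. The 4 arrays under a mutant label other than rnt1ts at 26 C were all below the other 4, and the rnt1d difference at 26 C was -0.86 (SE 0.23, limma adjusted p = 0.0913). MAK21, of the earliest 60S particles, was below the 3 wild type arrays on all 5 arrays with a mutant label, and gave 132 and 135 in wild type against 89.1 and 69.4 in rnt1d, 100.4 in rnt1ts, 178 in wild type at 37 C, and 106 and 81.1 on the labelled arrays (-0.66, SE 0.18, limma adjusted p = 0.098). NMD3, the export adaptor of the 60S subunit, was at -0.73 (SE 0.19, limma adjusted p = 0.0922). The Nop7 complex was close together, with NOP7 at -0.45, YTM1 at -0.38 and ERB1 at -0.26. Of the other early factors, NOP2 was at -0.47, SPB1 at -0.44, NSA1 at -0.28 and SSF1 at -0.06.

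DRS1 and RPF2 again showed the rnt1d replicates apart. DRS1, a helicase, gave 139.6 and 136 in wild type against 121 and 56.5 in rnt1d (-0.63, SE 0.31, limma adjusted p = 0.29). RPF2, which helps to bring in the 5S particle, gave 466 and 327 in wild type against 446 and 207 in rnt1d, 391 in rnt1ts, 734 in wild type at 37 C, and 575 and 539 on the labelled arrays. Its first rnt1d array lay between the wild type arrays and its second below them (-0.34, SE 0.37, limma adjusted p = 0.628). TIF6, which keeps the 60S subunit from joining the 40S too early, was not lower, with 900.5 and 753 in wild type against 1054 and 819 in rnt1d, 851 in rnt1ts, 816 in wild type at 37 C, and 925 and 1076 on the labelled arrays (0.17, SE 0.19, limma adjusted p = 0.634). TIF6's sign depended on the scaling and on 1 array, at -0.02 on the deposited scale, -0.38 after median scaling and -0.007 without rnt1d replicate 1. RLP7 was at -0.09.

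NUG1 (YER006W, chromosome V), a GTPase of 60S maturation and export, was the only gene of the 44 to pass the test. It gave 406 and 366 in wild type and 681 on both rnt1d arrays at 26 C, where it had the same rank, 397 in rnt1ts, 503 in wild type at 37 C, 473 on the array labelled rnt1d and 777 on the array labelled rnt1ts. The rnt1d mean was 681 against 386 ± 28.3 (SD, n = 2) in wild type, and NUG1 rose by 0.80 (SE 0.14, limma adjusted p = 0.0395), or 1.74-fold. The call was lost on the deposited scale, after median scaling (0.48, limma adjusted p = 0.14) and when any 1 of the 4 replicate arrays was left out (limma adjusted p from 0.0789 to 0.307).

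The 3 arrays on which NUG1 was highest were those on which the whole of chromosome V was high. Among probe sets above the median signal, 77 of 201 on chromosome V (38.3%) were called higher in rnt1d at 26 C, against 1.57% to 7.27% on the 15 other nuclear chromosomes. NUG1's neighbours were higher as well. YND1 read 99.8 and 80.7 in wild type against 179 and 207 in rnt1d, a rise of 0.98 with a limma adjusted p of 0.041, and PAC2 read 12.9 and 18.0 in wild type against 38.4 and 46.5 in rnt1d (0.90, limma adjusted p = 0.0526). With each array centred within chromosomes, a step chosen after the values were seen, NUG1 differed by 0.06 (limma adjusted p = 0.825). NUG1 was thus as high as its chromosome. Copy number was not measured.

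The other members on chromosome V, UTP7 and SNU13, ranked 2 and 5 of the 44 in rnt1d at 26 C. UTP7 (YER082C), a WD-repeat protein of the processome, gave 126 and 128 in wild type against 175 and 148 in rnt1d, 105 in rnt1ts, 129 in wild type at 37 C, and 104 and 181 on the labelled rnt1d and rnt1ts arrays. Its 3 highest arrays were the 3 with a high chromosome V (0.30, SE 0.17, limma adjusted p = 0.337). After centring within chromosomes UTP7 differed by -0.43 (limma adjusted p = 0.178) and SNU13 (YEL026W) by -0.64 (limma adjusted p = 0.0561), which reverses both signs. Of the 41 members on other chromosomes, 38 were below 0 with a median of -0.44 and 0 were called.

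**Figure D4:**
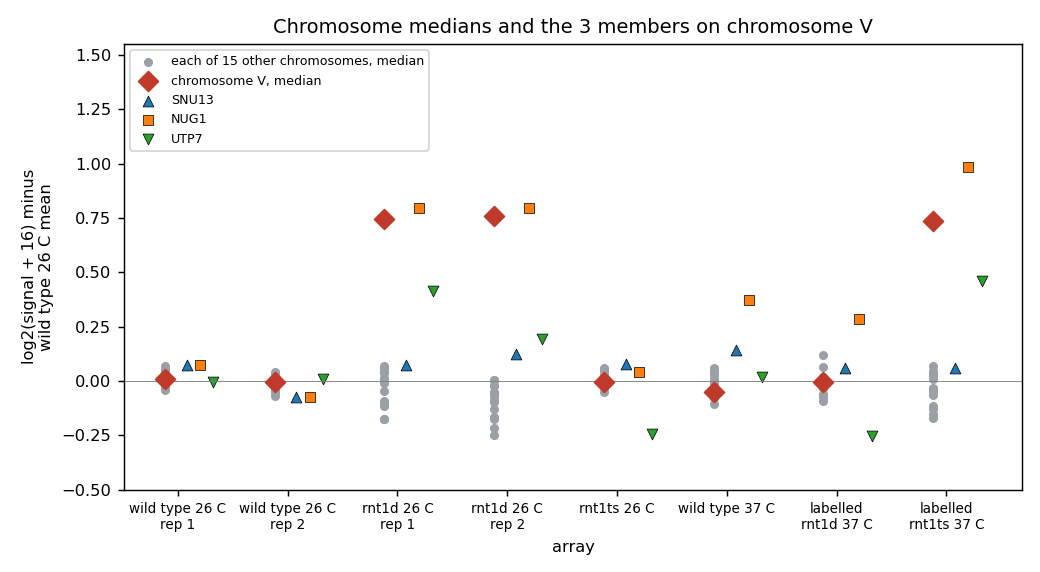
Median log2(signal + 16) minus the wild type 26 C mean of each nuclear chromosome on each array, for probe sets above the median signal, with chromosome V as a red diamond, the 15 other chromosomes in grey, and NUG1, UTP7 and SNU13 as single points. The diamond stands at 0.74, 0.76 and 0.74 on both rnt1d arrays at 26 C and the 37 C array labelled rnt1ts, where NUG1 and UTP7 are also highest.

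The gap between the rnt1d replicates enters the SE of every member and was described further. The 5 genes with the largest gap from replicate 1 to replicate 2 were UTP13 (-1.09), RPF2 (-1.05), DIP2 (-0.93), DRS1 (-0.91) and UTP10 (-0.91), and all had probe set numbers above 10000. Over all probe sets above the median signal, the same gap ran from 0.15 for numbers in the 4000s to -0.27 for those in the 11000s, the range that holds the members. The blocks without a member, the 2000s (98 probe sets) and the 3000s, were at -0.76 and 0.37, so the 2000s do not follow this order. Members were lower than all probe sets in each of the 8 blocks of 1000 numbers that held any, by -0.21 to -0.63. The wild type replicates had a smaller gap of the same direction, with a members' median of -0.16. The part of this gradient in the members' difference was not tested beyond centring each array within the blocks, which left the members' median at -0.37.

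**Figure D5:**
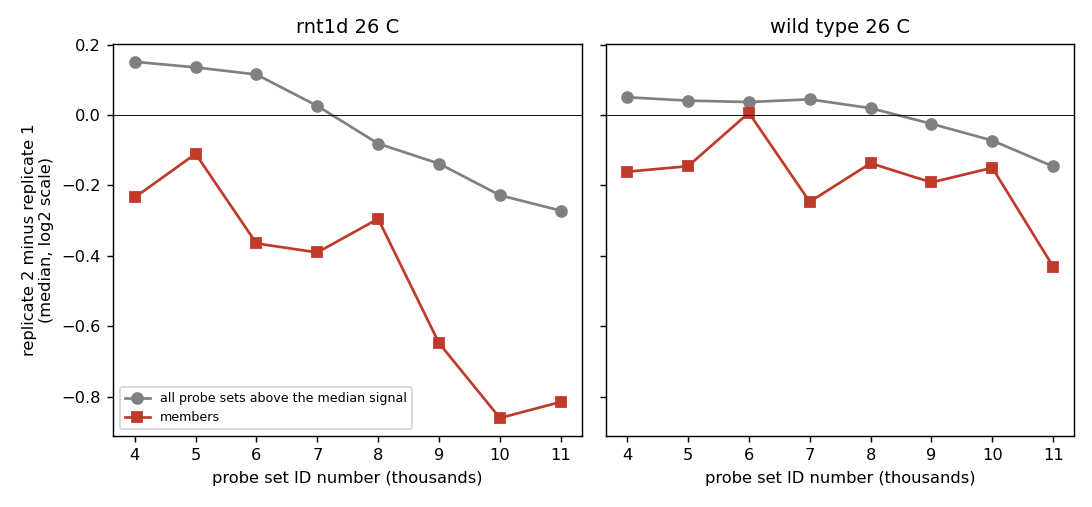
Median log2 difference of replicate 2 minus replicate 1 in rnt1d (left) and wild type (right) at 26 C, by block of 1000 probe set numbers that holds a member, in grey for all probe sets above the median signal and in red for the members. In rnt1d the grey line falls from 0.15 to -0.27 and the red line lies below it in every block.

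In rnt1ts at 26 C, where RNT1 fell by 1.69 (limma adjusted p = 0.0485), the assembly genes were close to wild type. None of the 44 was called, against 0.787% of all probe sets. At an unadjusted limma p under 0.05, 0 were lower, against 4.37% of all probe sets, and 0 higher, against 4.59%. With 1 rnt1ts array, the spread in this test came from the wild type and rnt1d replicates, and so included the gap between the rnt1d replicates. The median was -0.12, with 33 genes below 0 (75%, against 50.8% of all probe sets), and the range was -0.49 to 0.23. Below 0 were 20 of the 22 small-subunit factors (median -0.16) and 9 of the 15 60S factors (median -0.02). Of the core proteins, 2 of 4 box C/D and 2 of 3 box H/ACA proteins were below 0. DIP2 (-0.49), UTP13 (-0.46) and IMP4 (-0.44) were the lowest, with limma adjusted p from 0.744 to 0.888, and all 3 lay below both wild type arrays. RLP7, an RNA-binding 60S factor, was the highest, with 158 and 218 in wild type and 221 in rnt1ts (0.23, limma adjusted p = 0.924), followed by NOP1 (0.21) and KRR1 (0.20). KRR1, a KH-domain protein of the small subunit, gave 101 on both wild type arrays, 119 in rnt1ts, and 84.6 and 56.8 in rnt1d. The array was below both wild type arrays for 21 of the 44 genes (47.7%), against 35.8% of all probe sets. This comparison shares its wild type arrays with that of rnt1d, so the 2 are not independent.

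In wild type at 37 C most subunit assembly factors were higher than at 26 C, while the direction of the snoRNP core proteins depended on the scaling. None of the 44 was called, and 0% of all 9275 probe sets were, with 1 array at 37 C (at an unadjusted limma p under 0.05, 5 members, 11.4%, were higher against 4.78% of all probe sets, and 1 member, 2.27%, was lower against 4.86%). Of the 44 genes 41 were above 0, with a median of 0.37 beside -0.02 over all probe sets. The 37 C array was above both wild type arrays at 26 C for 37 of the 44 (84.1%), against 35.2% of all probe sets, and the highest of all 8 arrays for 29 (65.9%), against 13.4%. The small-subunit and 60S factors both had medians of 0.39, while the box C/D proteins were between 0.09 and 0.18 and the box H/ACA proteins between -0.03 and 0.08. After median scaling the assembly factors were still above 0, at 0.28 and 0.29, but all 7 core proteins turned or stayed below 0, between -0.37 and -0.14 for box C/D and between -0.36 and -0.34 for box H/ACA, and the members below 0 went from 3 to 11. The difference between the roles was not tested. The median over the members was 0.23 after median scaling, 0.67 on the deposited scale and 0.24 in an additive fit of strain and temperature. The additive fit took strains from the labels, also for the 37 C arrays with a mutant label. It assumed the same strain effects at both temperatures.

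RPF2 (466 and 327 at 26 C, 734 at 37 C), DHR2 and RLP7 were the highest at 37 C, at 0.88, 0.87 and 0.86 (limma adjusted p from 0.457 to 0.595). DHR2, a helicase of the small subunit, gave 162 and 104 in wild type at 26 C, 251 in wild type at 37 C, 116 and 72.7 in rnt1d, 101 in rnt1ts, and 134 and 108 on the labelled rnt1d and rnt1ts arrays. RLP7 gave 349.9 in wild type at 37 C, and 261 and 204 on the labelled arrays. For both genes the wild type 37 C array was above the other 7. NAN1, a UtpA protein, was the exception, with 118 and 96.7 in wild type at 26 C and 42.6 at 37 C, where every other array read 66.3 or more (-1.07, limma adjusted p = 0.375). The sign of GAR1 (-0.03) and TIF6 (-0.01) turned under other settings.

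On the arrays with a mutant label at 37 C the members were lower than on the wild type array at 37 C. With the array labelled rnt1d, 0 of 44 were called, against 0.884% of all probe sets, 37 were below 0 (84.1%, against 50.7% of all) and the median was -0.30. With the array labelled rnt1ts, which had the RNT1, OLI1 and chromosome V values of the rnt1d arrays, 0 of 44 were called, against 1.23% of all probe sets, 39 were below 0 (88.6%, against 49.5% of all) and the median was -0.54. At an unadjusted limma p under 0.05, 4 members were lower on the array labelled rnt1d (9.09%, against 6.15% of all probe sets) and 1 higher (2.27%, against 6.44%). On that labelled rnt1ts 8 were lower (18.2%, against 8.42%) and 2 higher (4.55%, against 9.25%). Both comparisons rest on 1 array a side and share the wild type 37 C array, which was itself high for these genes. Against the wild type 26 C mean, the array labelled rnt1d stood at 0.01 and the array labelled rnt1ts at -0.21.

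NOP14, a core factor of the small subunit, was the lowest in both comparisons, with 99.1 in wild type at 37 C, and 43.4 and 36.8 on the labelled rnt1d and rnt1ts arrays. Its wild type signals at 26 C were 55.1 and 61.0, with 49.2 and 33.6 in rnt1d and 57.6 in rnt1ts. The differences at 37 C were -0.95 (limma adjusted p = 0.254) and -1.12 (limma adjusted p = 0.154). DHR2 was next in both, at -0.84 and -1.10, followed by UTP4 (-0.76) on the array labelled rnt1d and MAK21 (-0.998, limma adjusted p = 0.147) on that labelled rnt1ts. NAN1 was the highest in both, at 0.88 and 0.81, against its low wild type signal. On the array labelled rnt1d, TIF6 (0.18) and SSF1 (0.15, 175 on this array against 157 in wild type at 37 C) followed. On the array labelled rnt1ts, NUG1 (0.61, limma adjusted p = 0.223) and UTP7 (0.44) followed, and both turned below 0 after centring within chromosomes (-0.11 and -0.28). By label, the mutant effect at 37 C was taken minus that at 26 C. For rnt1d it was below 0 for 19 of the 44 genes (43.2%, against 48.2% of all probe sets, median 0.07). For rnt1ts it was below 0 for 37 (84.1%, against 49.5%, median -0.42). The 37 C arrays were unlike the 26 C arrays of the same label in RNT1, OLI1 and chromosome V. Neither difference can therefore be read as a change with temperature within 1 strain. The change of the labelled effect was tested as an interaction. It was called for 0 of the 44 genes under either label, against 0.0647% of all probe sets for rnt1d and 0.248% for rnt1ts.

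Other genes of the pathway, from lists made by function, were mostly lower in rnt1d too. Of 36 other small-subunit factors in rnt1d at 26 C, 34 were below 0 with a median of -0.38 and 0 calls. Of 53 other large-subunit factors, 50 were below 0 with a median of -0.44, and 1 was called lower, where 1.95% of all probe sets were. That gene was MAK5, a helicase of 60S assembly, with 166 and 175 in wild type against 82.7 and 75.2 in rnt1d, which fell by 0.97 (SE 0.16, limma adjusted p = 0.0319) with close replicates, a call that was lost on the deposited scale and with any 1 of the 4 replicate arrays left out (limma adjusted p from 0.0685 to 0.254). Both lists were also lower on rnt1d replicate 2 (-0.54 and -0.67) than on replicate 1 (-0.27 and -0.21), and both were higher in wild type at 37 C (0.39 and 0.33). In rnt1ts at 26 C, 31 of the 36 and 43 of the 53 were below 0, with medians of -0.26 and -0.21. The 11 snoRNP assembly factors had a median of -0.18 and the 15 RNA polymerase I genes one of -0.16, both with 0 calls.

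The level of the cytosolic ribosomal protein genes depended on the scaling. Their 75 genes had a median of -0.21 on rnt1d replicate 1 and -0.20 on replicate 2, against -0.88 and -0.56 after median scaling and 0.02 and -0.72 on the deposited scale. In the comparison the median was -0.20, with 1 called higher, where 3.54% of all probe sets were, and 3 lower, where 1.95% were. The 3 were RPL22B (-1.56, limma adjusted p = 0.00762), RPL9B (-1.64, limma adjusted p = 0.0103) and RPL7B (-2.36, limma adjusted p = 0.0305), and without either wild type array all 3 missed the threshold (limma adjusted p from 0.114 to 0.239). RPL22B and RPL9B also missed it on the deposited scale (limma adjusted p = 0.417 and 0.447), and RPL9B without rnt1d replicate 2 (limma adjusted p = 0.0603). At 37 C in wild type they had a median of -0.09, and of -0.51 after median scaling, with 73 of 75 then below 0. Of 10 regulators of ribosome genes, DOT6 was called higher, where 3.54% of all probe sets were, and the median of the 10 was -0.16. DOT6 (YER088C, chromosome V), a repressor that binds the promoters of assembly genes, gave 216 and 209.6 in wild type against 478 and 615 in rnt1d, 206 in rnt1ts, 344 in wild type at 37 C, and 586 and 392 on the labelled rnt1d and rnt1ts arrays. It rose by 1.29 (SE 0.18, limma adjusted p = 0.0199), and by 0.55 relative to its chromosome, which missed the threshold (limma adjusted p = 0.112). The call was also lost on the deposited scale and without either wild type array or rnt1d replicate 2 (limma adjusted p from 0.0633 to 0.209 with 1 of these left out).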

How the data were processed

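Total RNA of 8 yeast cultures was measured on Affymetrix arrays. For each probe set the authors deposited a linear intensity, which the submitters' processing notes credit to MAS5, with version and scaling target not given in the sources used here. All 9335 probe sets, 60 of them controls, were quantile-normalised and tested as log2(signal + 16) in R 4.3.3 with limma 3.58.1. The model had 6 group means and a mean-variance trend, with two-sided tests and Benjamini-Hochberg adjustment over the 9275 probe sets that are not controls. Its residual degrees of freedom were 2, and lone arrays were assumed to vary like the replicated groups. The p-values measure the spread between these arrays, whose number limits the precision.

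The members and lists were chosen with earlier results of these data known, and so was the normalization, because the deposited arrays were on different scales. Signals on all or some of the arrays are given for the core snoRNP proteins, every called member and the 5 highest and 5 lowest members in rnt1d at 26 C. The same holds for the 5 with the largest replicate gap, and the 3 highest and 3 lowest of each other comparison. Gene names came from the platform annotation, and chromosomes and neighbours from a RefSeq table of assembly R64. Promoter motifs were planned but not analysed here. The script was tested on simulated data. Alternatives were other scalings, a pseudocount of 1, a filter at the 50th percentile, no trend, the mean of a gene's probe sets, fits with fewer arrays, an additive fit and a replicate block. Centring within chromosomes or probe set number blocks was added after the values were seen, as was the interaction.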

Additional observations from a re-analysis of the deposited data

How the results depend on the processing

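The members' median in rnt1d at 26 C stayed below 0 under all 16 alternatives, from -0.65 without rnt1d replicate 1 to -0.18 without rnt1d replicate 2, while its size, the calls and the sign of some genes moved. Called lower were 2 members with the filter at the 50th percentile (4.76%, against 6.45% of all features tested), 8 with the mean of a gene's probe sets (18.6%, against 8.72%), 3 after median scaling (6.82%, against 3.62%), and 0 to 3 with 1 array left out (3 without rnt1d replicate 1, 6.82% against 0.927%). The replicate numbers are shared by wild type and rnt1d, but with 2 pairs they cannot be shown to pair the arrays (correlation of same-numbered deviations 0.311); with the replicate block 10 members were called lower (22.7%, against 6.99%). Called higher was 0, in place of NUG1, on the deposited scale, after median scaling, after centring within chromosomes or within probe set number blocks, and 0 to 0 with 1 array left out. The 3 members called lower after median scaling were NMD3, GAR1 and NOP1. The deposited scale moved the median of all probe sets in rnt1d at 26 C to 0.12. Member medians moved on the deposited scale in rnt1ts at 26 C (0.32), wild type at 37 C (0.67) and the array labelled rnt1ts (-0.69), and in wild type at 37 C also with the additive fit (0.24) and median scaling (0.23). With the mean of a gene's probe sets 3 members (NOP7, MAK21 and NOP14) were called lower on the array labelled rnt1ts (6.98%, against 3.16%). Signs turned in rnt1d at 26 C on the deposited scale for SNU13 (-0.094), TIF6 (-0.017), NSA1 (0.048), RLP7 (0.16), SSF1 (0.22) and UTP10 (0.13), after median scaling for SNU13 (-0.46) and TIF6 (-0.38), after centring within chromosomes for SNU13 (-0.64), UTP7 (-0.43), SSF1 (0.052) and UTP10 (0.088), and within blocks for SNU13 (-0.11) and UTP10 (0.020). With 1 array left out they turned for TIF6 (-0.0074 to 0.35), ERB1 (-0.54 to 0.015), RLP7 (-0.30 to 0.12), RPF2 (-0.88 to 0.18), SSF1 (-0.20 to 0.079), UTP10 (-0.51 to 0.41) and UTP8 (-0.0092 to 0.18). In rnt1ts at 26 C 29 of the 44 signs turned on the deposited scale (40 then above 0), 10 without wild type replicate 1 and 8 without wild type replicate 2. There NUG1 turned after median scaling (-0.011) and with 1 array left out (-0.032 to 0.11). In wild type at 37 C median scaling turned NOP1 (-0.17), NOP56 (-0.14), NOP58 (-0.37), SNU13 (-0.30), CBF5 (-0.34) and NHP2 (-0.36), as well as ENP1 and UTP7. There TIF6 turned with the additive fit (0.083), the deposited scale (0.17), chromosomes (0.019), blocks (0.046) and 1 array left out (-0.14 to 0.11), GAR1 on the deposited scale (0.15), with chromosomes (0.031), blocks (0.036) and 1 array left out (-0.090 to 0.040), CBF5 with chromosomes (-0.015) and 1 array left out (-0.055 to 0.12), and NOP58 with the mean of its probe sets (-0.058). On the labelled arrays the sign turned for TIF6 (rnt1d, deposited -0.15 and median scaling -0.14), NUG1 (rnt1ts, chromosomes -0.11) and UTP7 (rnt1ts, chromosomes -0.28). The causes were not tested.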
